A study of Mus musculus with 43 samples.

Results

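The keratin-associated proteins are the matrix proteins in which the keratin filaments of the hair shaft are embedded, and their genes carry the symbol Krtap followed by a number. All rows of the deposited table whose symbol starts with Krtap and a digit were taken, which gave 55 of 23256 genes, from 26 numbered subfamilies. The table holds poly-A RNA of 43 libraries made from the back skin of females between 10 and 13 weeks old, in 9 groups: 3 mouse strains, each under 3 regimens of ultraviolet B light (UVB), the band behind sunburn. The iNZM, NZM and WT strains each had libraries after chronic UVB (100 mJ/cm2 daily for 5 days), after acute UVB (300 mJ/cm2 given 1 time) and with no UVB, and skin was biopsied 24 hours after the last exposure. Every group held 5 libraries, except unexposed iNZM and unexposed WT skin with 4 each. The series title gives NZM as NZM2328, a lupus-prone line. iNZM is not spelled out in the labels; elsewhere it denotes NZM2328 animals that lack the receptor for type I interferons. The strain behind WT is not given. The labels do not say that each library came from a separate animal, so the tests measure the spread between libraries, which may be partly technical. Libraries are named here by group and sample number.

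Hair grows in cycles, and a follicle builds a shaft only while its lower part, the bulb, is growing; in resting follicles the bulb is gone and shaft genes are silent. In the growing bulb, matrix cells divide, leave the matrix and make hair keratins first and keratin-associated proteins somewhat later, in the cuticle and cortex of the shaft. Cysteines of the keratin-associated proteins form disulfide bonds with the hair keratins, and glycine- and tyrosine-rich members fill the space between filaments.

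By the share of codons, 17 members were high glycine-tyrosine proteins (glycine plus tyrosine at least 35% of residues), 17 were ultra-high sulfur proteins (cysteine at least 30%) and the other 21 were called high sulfur. The glycine-tyrosine rule was applied first, which placed the 3 members that met both limits in the glycine-tyrosine group. They were Krtap28-13, with 42.8% cysteine and 42.0% glycine plus tyrosine, Krtap5-2, with 34.6% and 36.0%, and Krtap5-3, with 35.1% and 39.3%. It left Krtap7-1, usually counted with the glycine-tyrosine proteins, in the high sulfur group at 29.9%. All 55 members were found in the GENCODE vM21 annotation of build GRCm38 as protein-coding genes, and 49 had a single exon. Of these 55 genes, 23 lay on chromosome 11 (99550130 to 99993994) and 23 on chromosome 16 (88610705 to 89571183). Another 5 lay on chromosome 7, 3 on chromosome 10 and 1 on chromosome 1. The chromosome 11 genes stand among the type I keratin genes, the acidic keratins.

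Per kilobase of exon, and averaged over all 43 libraries, Krtap7-1 had the highest level, with a normalised read count of 12479 per kilobase. Next came Krtap8-1, a short glycine-tyrosine-rich protein gene, at 6767, Krtap3-1, a high sulfur protein gene, at 5488, and Krtap22-2, another glycine-tyrosine-rich one, at 4257. This average is weighted towards the few libraries with high sums, and the order of members differed between them. Krtap7-1 was highest per kilobase in all 9 libraries whose summed count passed 10000, but Krtap11-1 exceeded Krtap3-1 in 4 of these 9. Among the members with the highest mean count of their subfamily, taken without regard to length, and again per kilobase, Krtap11-1 stood at 3603, Krtap15 at 2982, Krtap9-3 at 2481, Krtap14 at 2226, Krtap1-5 at 1879, Krtap4-1 at 1735, Krtap17-1 at 1200.4 and Krtap19-3 at 1023. Below them came Krtap2-4 at 976, Krtap6-2 at 573, Krtap13-1 at 568.1, Krtap21-1 at 513, Krtap16-1 at 496, Krtap31-1 at 443, Krtap10-4 at 398.5, Krtap28-13 at 389, Krtap26-1 at 355, Krtap12-1 at 247 and Krtap5-2 at 165. In 6 subfamilies another member was higher per kilobase than the one named: Krtap1-3 at 1889, Krtap16-3 at 1091, Krtap19-9b at 1055, Krtap6-5 at 712, Krtap31-2 at 457 and Krtap5-5 at 189. The lowest of the subfamily leaders were Krtap24-1 at 130.0, Krtap27-1 at 62.1 and Krtap29-1 at 37.4 per kilobase.

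The stretches before the transcription start were examined because nearly all members moved together between libraries, as described further on. RefSeq promoter sequences (build GRCm38.p6, 250 bases before to 50 after the start) were at hand for 50 of the 55 members. The TATA box TATAAA, searched on both strands of these 300 bases, was present in 41 of 50 (82%), against 14.2% of 27025 promoters of all genes. On the strand of the gene and within bases 45 to 16 before the start, where a TATA box is normally found, 31 of 50 members (62%) had it, against 2.36% of all promoters. The core CTTTGA, which is bound by LEF and TCF factors of the Wnt pathway, was present on either strand in 15 of 50 (30%), against 16.2% of all promoters. A match says only that these letters are in the window. Most members lie in clusters and some have near-identical coding sequences, so the 50 promoters may not be independent of each other. The 100 bases before the start are shown for Krtap8-1, a member that followed the rest, for Krtap3-2 and Krtap3-3, whose coding sequences are identical but whose levels in unexposed skin were not alike, and for Krtap13, the member that least resembled the rest. TATAAA on the strand of the gene is in capitals; these 4 were chosen after their values were seen. The sequences are from RefSeq, minus strand, at chr16:89487953-89488052, chr11:99556854-99556953, chr11:99550864-99550963 and chr16:88751629-88751728, each read 5′ to 3′.
Krtap8-1: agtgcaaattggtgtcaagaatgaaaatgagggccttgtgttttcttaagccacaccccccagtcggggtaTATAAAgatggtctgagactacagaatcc
Krtap3-2: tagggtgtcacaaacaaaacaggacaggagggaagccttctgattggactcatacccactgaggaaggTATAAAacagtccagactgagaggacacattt
Krtap3-3: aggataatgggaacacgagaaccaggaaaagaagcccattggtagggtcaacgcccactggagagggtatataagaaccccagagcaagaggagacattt
Krtap13: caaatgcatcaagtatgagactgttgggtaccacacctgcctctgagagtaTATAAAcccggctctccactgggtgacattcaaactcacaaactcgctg
In Krtap8-1 the box began 29 bases before the start, and in Krtap3-2 it began 32 bases before. Krtap3-3 had no exact TATAAA in these 100 bases, but it held the similar stretch tatataag, which the search did not count. Whether that stretch acts as a TATA box was not tested. Krtap13 had TATAAA farther out than base 45, counted from the RefSeq start. GENCODE places the start of Krtap13 at 88751635, inside the stretch shown and closer to the box. Whether its box lies in the window thus depends on the annotation.

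In the 39 libraries whose whole reads were recovered, depth was 18.49 M to 37.76 M reads (median 24.44 M), and the deposited values are read counts divided by 1 size factor per library. Markers of interfollicular epidermis, the skin surface between follicles, were present in every library, with sums of 8 genes of at least 110273. All 55 members passed the filter (10 or more normalised reads in 4 or more libraries), but most did so through a minority of libraries. Reads were found in 20 or fewer of the 43 libraries for 51 members.

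The summed normalised read count of the 55 members differed by several orders of magnitude between libraries of the same group. After chronic UVB it was 942982, 288834, 31563, 1229 and 122 in iNZM skin, 364847, 218413, 109673, 3731 and 133 in NZM skin, and 283, 146, 110.0, 105 and 48.2 in WT skin. After acute UVB it was 162419, 123883, 36.3, 32.5 and 3.36 in iNZM skin, 177464, 489.6, 31.4, 28.9 and 7.60 in NZM skin, and 4253, 848, 124, 1.73 and 0 in WT skin. In unexposed skin it was 330.0, 324, 212 and 139 in iNZM, 750.4, 729.8, 528, 481 and 475 in NZM, and 4488, 438, 346 and 259 in WT. Libraries above 10000, a limit set after the values were seen and used only for description, numbered 9 of 43: 3 of 5 iNZM and 3 of 5 NZM libraries after chronic UVB, 2 of 5 iNZM and 1 of 5 NZM libraries after acute UVB, and 0 of 14 WT libraries and 0 of 13 unexposed ones. In iNZM chronic UVB library 25 the 55 genes took 3.80% of all normalised reads. In whole skin, fewer cells of a type and less RNA per cell cannot be told apart.

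**Figure D1:**
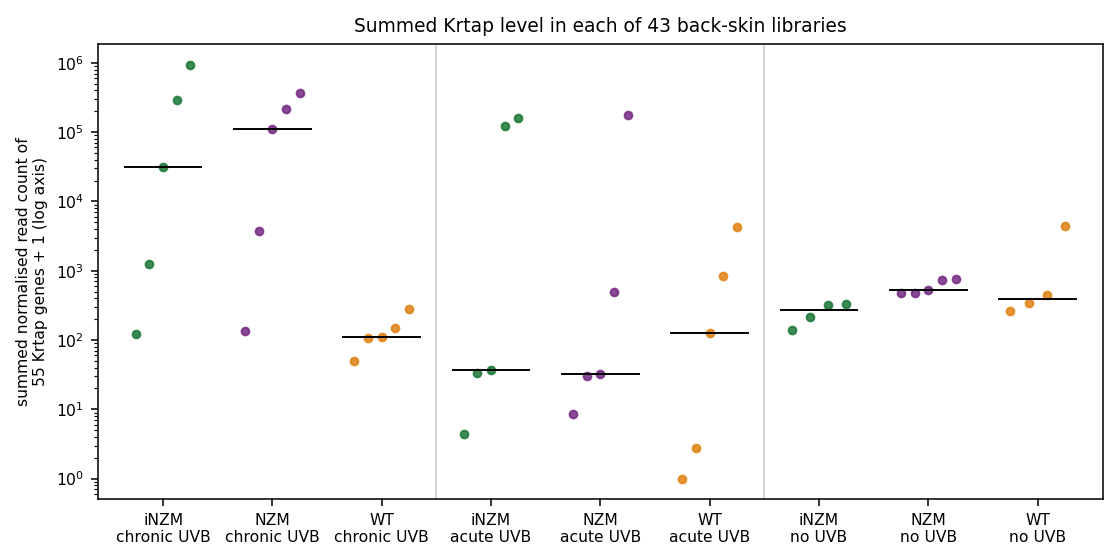
Summed normalised read count of the 55 Krtap genes plus 1 (log axis), 1 point per library, by strain and UVB regimen; bars are group medians. The 9 libraries above 10000 are iNZM and NZM libraries after UVB, the other libraries of those groups lie at 3731 or below, and WT libraries reach at most 4488.

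The members with the highest means showed the same split one by one. Krtap7-1 had 119886, 46499, 6029.7, 215 and 0 normalised reads in iNZM skin after chronic UVB, 39337, 27508, 14109.9, 622 and 0 in NZM skin, and 0 in all 5 WT libraries. After acute UVB it had 32220.4, 22529, 2.20, 0 and 0 in iNZM, 22430.1, 72.9, 0, 0 and 0 in NZM, and 1009.9, 132, 2.91, 0 and 0 in WT skin. Unexposed skin had 0 in all 4 iNZM libraries, 53.2 in 1 and 0 in 4 NZM libraries, and 580.4 in 1 and 0 in 3 WT libraries. Within each UVB-exposed iNZM and NZM group, then, single libraries stood far above others of the group, and the lowest of them overlapped the unexposed range.

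Krtap8-1 had 54983, 22915, 3051, 95 and 0 in iNZM skin after chronic UVB, 23708, 12393, 7914, 309.6 and 0 in NZM skin, and 0 in all 5 WT libraries. The acute regimen gave it 16392, 11629.7, 5.49, 0 and 0 in iNZM, 12766, 62.0, 0, 0 and 0 in NZM, and 486, 45.6, 0, 0 and 0 in WT skin. Without UVB it was 0 in 4 iNZM libraries, 23.1 in 1 and 0 in 4 NZM libraries, and 229.8, 0.99, 0 and 0 in WT skin. The high libraries were those of Krtap7-1.

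Krtap11-1, a high sulfur protein gene, had 39558, 23687, 3853, 233 and 2.22 in iNZM skin after chronic UVB, 20140.4, 11598, 8527, 212 and 0.95 in NZM skin, and 3.27 in 1 and 0 in 4 WT libraries. In acutely exposed skin it had 20239, 13706, 5.49, 0 and 0 in iNZM, 13556, 36.5, 3.93, 3.04 and 0 in NZM, and 503, 39.7, 1.94, 0 and 0 in WT skin. Without UVB it had 1.65, 0.97, 0 and 0 in iNZM, 11.6, 0.97, 0, 0 and 0 in NZM, and 232, 2.97, 0 and 0 in WT skin. It had reads in 27 libraries, more than most members, and the high libraries were again the same.

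Krtap3-1 had 62504, 13739.8, 1466, 81.7 and 0 in iNZM skin after chronic UVB, 21058, 12162, 6209.9, 307 and 0 in NZM skin, and 1.14 in 1 and 0 in 4 WT libraries. With acute UVB it had 7341, 6239.7, 3.30, 0 and 0 in iNZM, 10850.5, 5.47, 0, 0 and 0 in NZM, and 216, 43.2, 3.88, 0 and 0 in WT skin. Without UVB it was 0 in 4 iNZM libraries, 6.94, 1.22, 0, 0 and 0 in NZM, and 297 in 1 and 0 in 3 WT libraries. Krtap15, a member whose annotated span overlaps that of Krtap14 on the other strand, is given as uncertain, since the counting is not stated to use strand. It had 57806, 17640.4, 1287, 1.48 and 0 in iNZM skin after chronic UVB, 19632, 11143, 2866, 35.6 and 0 in NZM skin, and 0 in all 5 WT libraries. After acute UVB it had 9452, 5966, 1.10, 0 and 0 in iNZM, 8679, 4.56, 0, 0 and 0 in NZM, and 175, 4.67, 0, 0 and 0 in WT skin. Of the 13 unexposed libraries only WT library 44 had Krtap15 reads, at 180.4.

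Libraries tended to hold either most of the family or almost none of it. Reads of 20 or more members were present in 17 libraries, reads of 7 or fewer in 25, and 1 library lay between. All 55 members were present in 7 libraries, and 54 members had reads in each of the 9 libraries above 10000. The exception was Krtap13. The highest library was iNZM chronic UVB library 25 for 47 members. WT unexposed library 44 had reads of 51 members at a summed count of 4488, so a low level of most of the family was also found without UVB, and the other 3 unexposed WT libraries had 3 to 6 members.

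**Figure D2:**
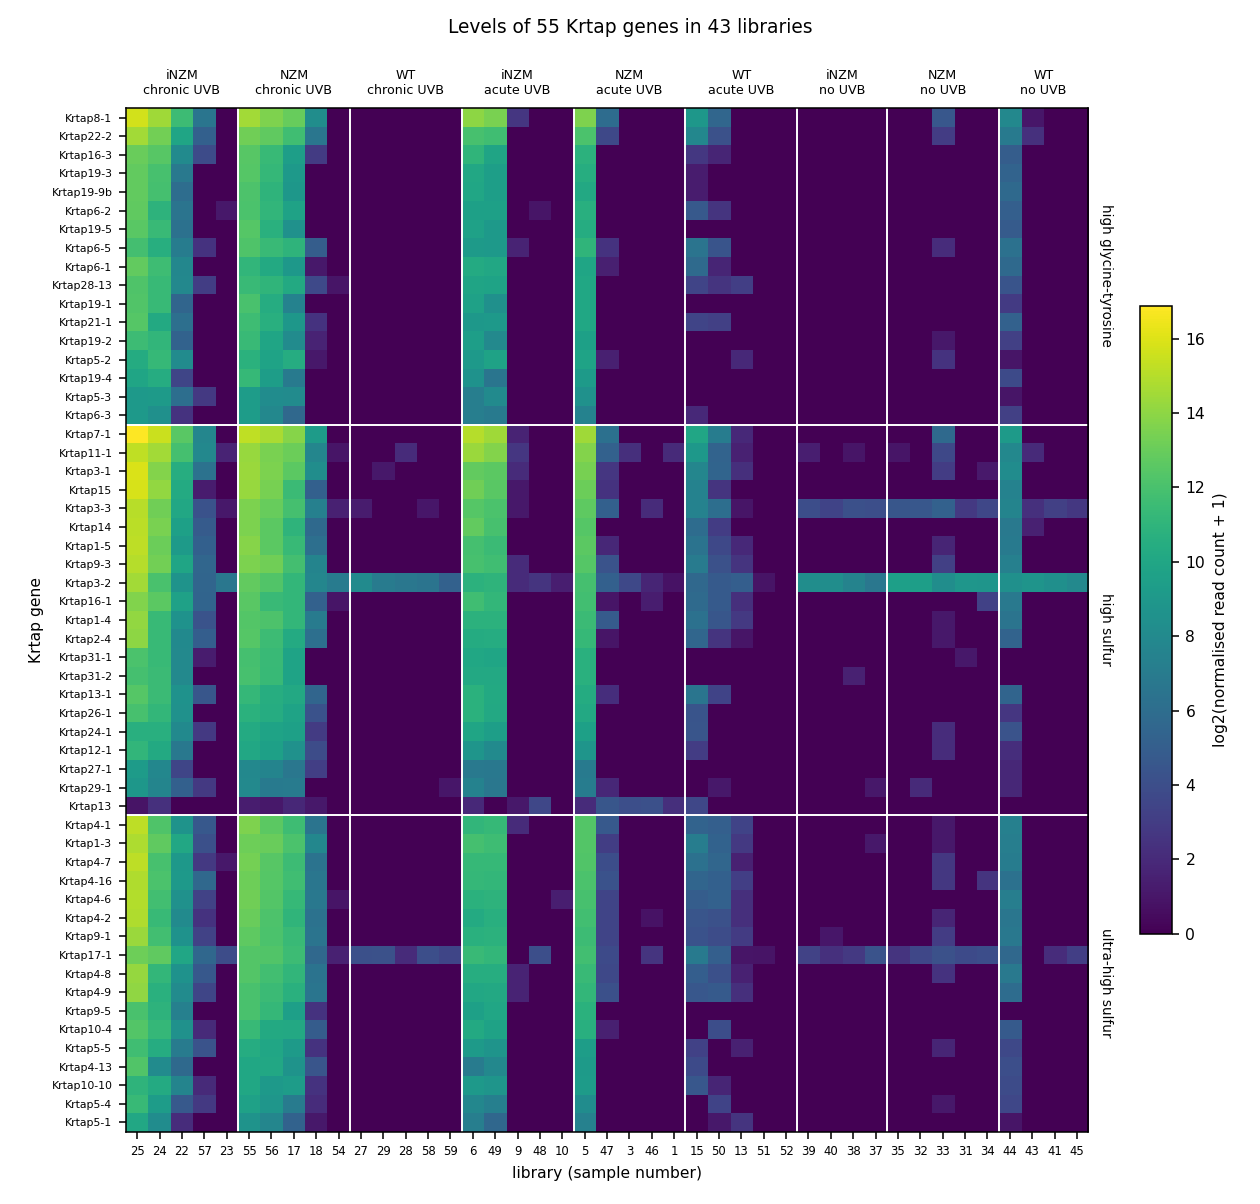
log2(normalised read count + 1) of each Krtap gene (rows, grouped by protein class) in each of the 43 libraries (columns, by group and, within a group, by summed Krtap count). Most genes are at high values in the same libraries and at 0 elsewhere; the rows of Krtap3-2, Krtap3-3 and Krtap17-1 have reads in most libraries.

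Chronic UVB was set against no UVB within each strain, on log2(value + 1) with limma-trend, with Benjamini-Hochberg adjustment over 19170 genes at 0.05. In iNZM skin 37 of 55 members were higher and 0 lower after chronic UVB; of all genes tested, 28.9% were called, 13.1% higher and 15.7% lower. The median log2 difference of the 55 members was 6.46, against 0.02 over all genes. Among the members with the smallest adjusted p, Krtap11-1 rose by 9.66 ± 2.91 (SE, adjusted p = 0.0140), Krtap16-1, a high sulfur protein gene, by 8.28 ± 2.59 (adjusted p = 0.0176) and Krtap9-3 by 8.74 ± 2.76 (adjusted p = 0.0182). Exposed library 23 had 0 reads of Krtap16-1 and Krtap9-3, as did all 4 unexposed libraries, and for Krtap11-1 its 2.22 lay just above the highest unexposed value, 1.65. The count was 1 without iNZM chronic UVB library 24 or without library 25, 21 without library 22, and 17 to 24 without any 1 of the 4 unexposed iNZM libraries. It was 3 when only the compared groups were fitted. On whole reads of 39 libraries edgeR called 48 higher and DESeq2 53. The shares of all genes called by edgeR and DESeq2 are not given here. Their member counts, here and below, therefore stand without a background, and the limma shares do not serve as one.

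In NZM skin 45 of 55 members were higher after chronic UVB than without UVB and 0 were lower, where 19% of all genes were called, 9.2% higher and 9.78% lower. The members had a median log2 difference of 7.04, against 0.04 over all genes. Krtap4-6 rose by 8.90 ± 2.44 (SE, limma adjusted p = 0.0114) and Krtap4-9 by 8.16 ± 2.28 (adjusted p = 0.0129), both ultra-high sulfur protein genes, and Krtap28-13 by 7.47 ± 2.15 (adjusted p = 0.0154). The members that did not pass the threshold included Krtap3-3 at 5.32 ± 2.54 (adjusted p = 0.137), Krtap17-1 at 5.07 ± 2.20 (adjusted p = 0.0986), Krtap13 at 1.08 ± 0.62 (adjusted p = 0.216) and Krtap3-2 at 1.23 ± 1.77 (adjusted p = 0.667). The count was 2 without NZM chronic UVB library 55 or without library 56, 8 without library 17, and 24, 26 and 29 without unexposed libraries 31, 32 and 35. edgeR's quasi-likelihood test on whole reads of 39 libraries called 8 higher, DESeq2 47 and limma on those 39 libraries 26.

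In WT skin 0 of 55 members were called after chronic UVB by limma, 0 at an unadjusted p below 0.05, where 35.3% of all genes were called, 18.4% higher and 16.8% lower. The members had a median log2 difference of -1.34, and 1 member, Krtap17-1, had a positive one. edgeR called 0 and DESeq2 called 46 lower, in a comparison whose unexposed side held WT library 44 with most of the family's reads.

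**Figure D3:**
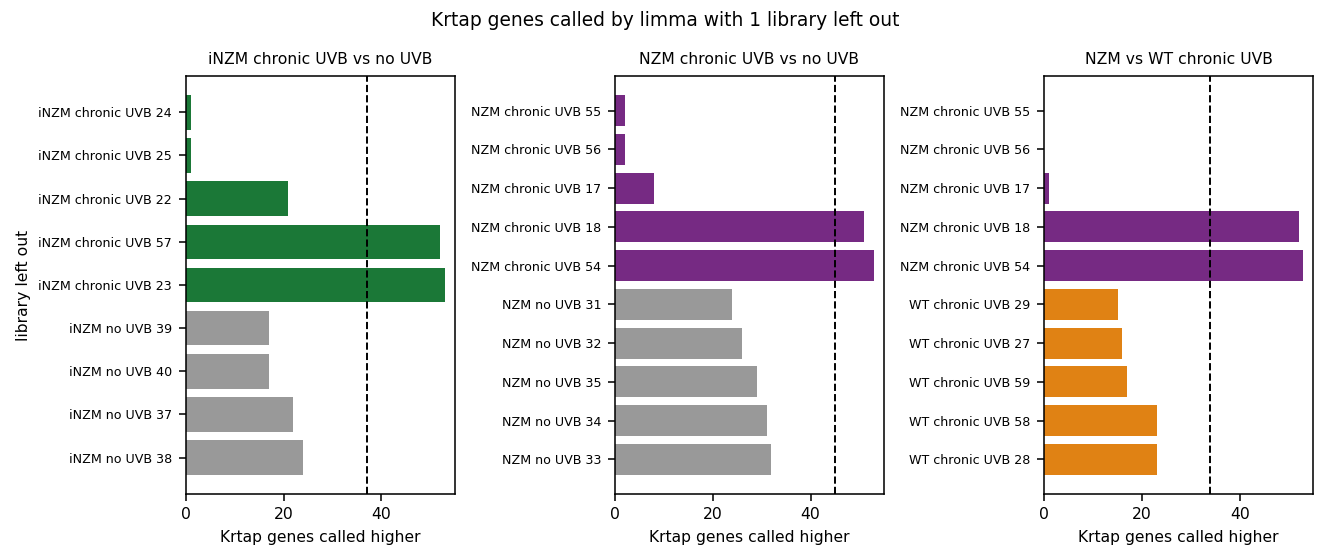
Number of the 55 Krtap genes that limma called higher (x axis) when 1 library was left out (y axis), for iNZM chronic UVB against no UVB, NZM chronic UVB against no UVB, and NZM against WT after chronic UVB; the dashed line is the count with all libraries (37, 45 and 34). Leaving out 1 of the highest libraries lowers the counts to between 0 and 21, and leaving out 1 low library of an exposed iNZM or NZM group raises them to between 51 and 53.

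After chronic UVB, 34 of 55 members were higher in NZM than in WT skin and 0 lower, where 7.88% of all genes were called, 4.29% higher and 3.59% lower. Their median log2 difference was 7.05, against -0.01 over all genes. Krtap4-6 was higher by 8.90 ± 2.44 (SE, limma adjusted p = 0.0169), Krtap4-9 by 8.16 ± 2.28 (adjusted p = 0.0194) and Krtap9-3 by 9.24 ± 2.60 (adjusted p = 0.0204). The count was 0 without NZM chronic UVB library 55 or without library 56, 1 without library 17, 15 to 17 without WT chronic UVB library 27, 29 or 59, 52 without NZM library 18 and 53 without NZM library 54. edgeR called 2 higher and DESeq2 53.

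Whether the difference between chronic and no UVB was itself unlike in NZM and WT skin was tested by the interaction of strain and regimen. limma called 0 of 55 members, where 7.58% of all genes were called, 3.5% higher and 4.08% lower. At an unadjusted p below 0.05, 47 members had a larger difference in NZM. No share of all genes at that unadjusted limit is given here, so this count has no background. The member with the smallest adjusted p was Krtap4-6, at 10.71 ± 3.56 (SE, adjusted p = 0.0565). The interaction called 36 members when only the 4 groups involved were fitted and 28 without NZM chronic UVB library 54; edgeR called 5 and DESeq2 52. The same members' differences stood at a median of 7.04 in NZM and -1.34 in WT skin.

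The iNZM and NZM strains after chronic UVB gave 0 of 55 calls by limma, by edgeR and by DESeq2, with 0 at an unadjusted p below 0.05. Of all genes, limma called 0.428%, with 0.0156% higher and 0.412% lower. For iNZM against NZM the median log2 difference was -0.45, and standard errors ran from 0.62 to 3.15. Differences of several log2 units would thus be within the error of these groups.

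After acute UVB the members were high in 2 of 5 iNZM and 1 of 5 NZM libraries, and group tests called few. In iNZM skin against no UVB limma called 0 of 55, 0 at an unadjusted p below 0.05, where 25.2% of all genes were called, 12.8% higher and 12.4% lower. Their median log2 difference was 3.99 and the standard errors ran from 0.65 to 3.35. edgeR and DESeq2 ran on 39 libraries, without iNZM acute UVB library 49, 1 of the 2 high ones. There edgeR called 1 member higher and DESeq2 51 higher. Their counts for acutely exposed iNZM skin given below lack that library too. In NZM skin against no UVB limma called 1 of 55, Krtap13, as higher, where 21.4% of all genes were called, 10.6% higher and 10.7% lower, and the median log2 difference was 2.15. edgeR also called 1 and DESeq2 40 higher. In WT skin limma called 1 of 55, Krtap3-2, as lower, where 21.7% of all genes were called, 10.4% higher and 11.3% lower, and the median log2 difference was 0.12. edgeR called 0 and DESeq2 6 lower. The interaction of strain and acute UVB between NZM and WT called 0 of 55, 1 at an unadjusted p below 0.05, where 0.115% of all genes were called, 0.0522% higher and 0.0626% lower. edgeR called 0 and DESeq2 22 there.

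Between strains after acute UVB, limma called 1 of 55 members, Krtap13, as higher in NZM than in WT skin, where 13% of all genes were called, 7.96% higher and 5.08% lower. It called 0 of 55 between iNZM and NZM, 1 at an unadjusted p below 0.05, where 0.224% of all genes were called, 0.00522% higher and 0.219% lower; edgeR and DESeq2 called 0. Without iNZM acute UVB library 48 that count was 1. In unexposed skin 0 of 55 differed between NZM and WT (0 at an unadjusted p below 0.05, 15% of all genes called, 7.47% higher and 7.49% lower) and 0 between iNZM and NZM (0 at an unadjusted p below 0.05, 0.0313% of all genes called, all of them lower). edgeR called 0 in both. DESeq2 called 24 lower in unexposed NZM than WT skin and 17 lower and 1 higher in unexposed iNZM than NZM skin.

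The chronic regimen was also set against the acute one. In NZM skin limma called 2 of 55 members, 1 higher and 1 lower, where 7.55% of all genes were called, 3.79% higher and 3.76% lower. Krtap3-2 was higher after chronic than after acute UVB by 5.54 ± 1.77 (SE, adjusted p = 0.0464), and Krtap13 was lower, with a log2 difference of -2.31 ± 0.62 (adjusted p = 0.0154). Without NZM acute UVB library 5, the only high library of that group, the count was 39, and without NZM chronic UVB library 54 it was 14. It was 1 without NZM acute UVB library 1 or 46 and without NZM chronic UVB library 17, 55 or 56, and 0 without NZM acute UVB library 3 or 47. edgeR and DESeq2 called 0. Without NZM chronic UVB library 54, Krtap13 also missed the threshold (adjusted p = 0.0518). In iNZM skin limma called 0 of 55 (1 at an unadjusted p below 0.05, 8.26% of all genes called, 3.81% higher and 4.45% lower), or 1 without iNZM acute UVB library 6, and edgeR and DESeq2 called 0. In WT skin limma called 0 (0 at an unadjusted p below 0.05, 37.3% of all genes called, 19.6% higher and 17.7% lower), edgeR 0 and DESeq2 41 lower.

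Krtap3-2, a high sulfur protein gene (ENSMUSG00000069721.2, chromosome 11, 99555823 to 99556853, minus strand), was the member found most widely, with reads in 42 of 43 libraries. After chronic UVB it had 23758, 4128, 397, 102 and 44.5 normalised reads in iNZM skin, 7229, 4900.2, 2353, 213 and 126 in NZM skin, and 265, 128, 103, 87.8 and 36.4 in WT skin. The acute regimen gave it 1965, 1823, 4.92, 3.30 and 1.68 in iNZM, 3745, 34.6, 11.8, 2.40 and 0.76 in NZM, and 50.8, 32.0, 26.9, 0.87 and 0 in WT skin. Without UVB it had 309.7, 304, 187 and 103 in iNZM, 722, 693, 461, 435 and 312 in NZM, and 424, 349.7, 334 and 246 in WT skin. All 13 unexposed libraries thus held it at 103 or more, while after acute UVB every library outside the 3 with high family totals was at 50.8 or below.

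In WT skin, where no library had a high family total after acute UVB, Krtap3-2 did not overlap between the 5 exposed and the 4 unexposed libraries. The share of all genes without overlap is not given for this comparison, in which limma called 21.7% of all genes. The log2 difference of Krtap3-2 was -5.09 ± 1.87 (SE, limma adjusted p = 0.0465). The adjusted p ran from 0.0141 to 0.182 over the alternatives. It was above 0.05 with a pseudocount of 8, with no filter, with a covariate for sample number, on the 39 libraries of the count tests, with edgeR and with DESeq2. The same held without any 1 of the 4 unexposed WT libraries and without WT acute UVB library 50, 51 or 52. In NZM skin the difference after acute UVB was -4.31 ± 1.77 (adjusted p = 0.0771) with library 5 among the 5, and in iNZM skin it was -2.13 ± 1.87 (adjusted p = 0.419) with libraries 6 and 49 among them.

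Krtap3-3, its neighbour on the same strand, has a coding sequence of 297 bases that is identical to that of Krtap3-2 at all 297, so how reads were shared between these 2 genes is uncertain. After chronic UVB Krtap3-3 had 34172, 9391, 1110.5, 17.8 and 1.11 in iNZM, 12104, 8063, 3875, 160.4 and 1.89 in NZM, and 1.47, 1.00, 0, 0 and 0 in WT skin. In acutely exposed skin it had 5438, 4353, 1.10, 0 and 0 in iNZM, 6569, 35.6, 3.21, 0 and 0 in NZM, and 179, 68.9, 0.97, 0 and 0 in WT skin. Without UVB it had 16.5, 15.3, 14.8 and 9.39 in iNZM, 37.0, 23.1, 22.3, 11 and 5.84 in NZM, and 195, 8.12, 5.56 and 3.96 in WT skin. In every unexposed library Krtap3-3 was therefore below Krtap3-2, while in each of the 9 libraries with high family totals it was above it. Per kilobase of exon and over all libraries, Krtap3-3 averaged 2715 and Krtap3-2 averaged 1273.

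Krtap17-1, an ultra-high sulfur protein gene (chromosome 11, 99993234 to 99993994, minus strand), was the third member with a base level, with reads in 37 libraries. After chronic UVB it had 9089.7, 6776, 998, 49.0 and 14.4 in iNZM, 5150.2, 5088, 3044, 50.1 and 1.89 in NZM, and 17.1, 16.2, 16, 10.7 and 3.27 in WT skin. With acute UVB it had 2775, 2325, 15.7, 0 and 0 in iNZM, 3499, 12.8, 4.81, 0 and 0 in NZM, and 126, 33.9, 0.97, 0.87 and 0 in WT skin. Without UVB it had 18.5, 9.07, 5.83 and 4.17 in iNZM, 17.3, 14.7, 12.8, 11 and 4.85 in NZM, and 51.3, 7.95, 3.48 and 0 in WT skin. The 5 WT libraries after chronic UVB lay within the range of the unexposed WT libraries. Only 3 members, Krtap3-2, Krtap3-3 and Krtap17-1, had reads in at least 30 libraries.

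**Figure D4:**
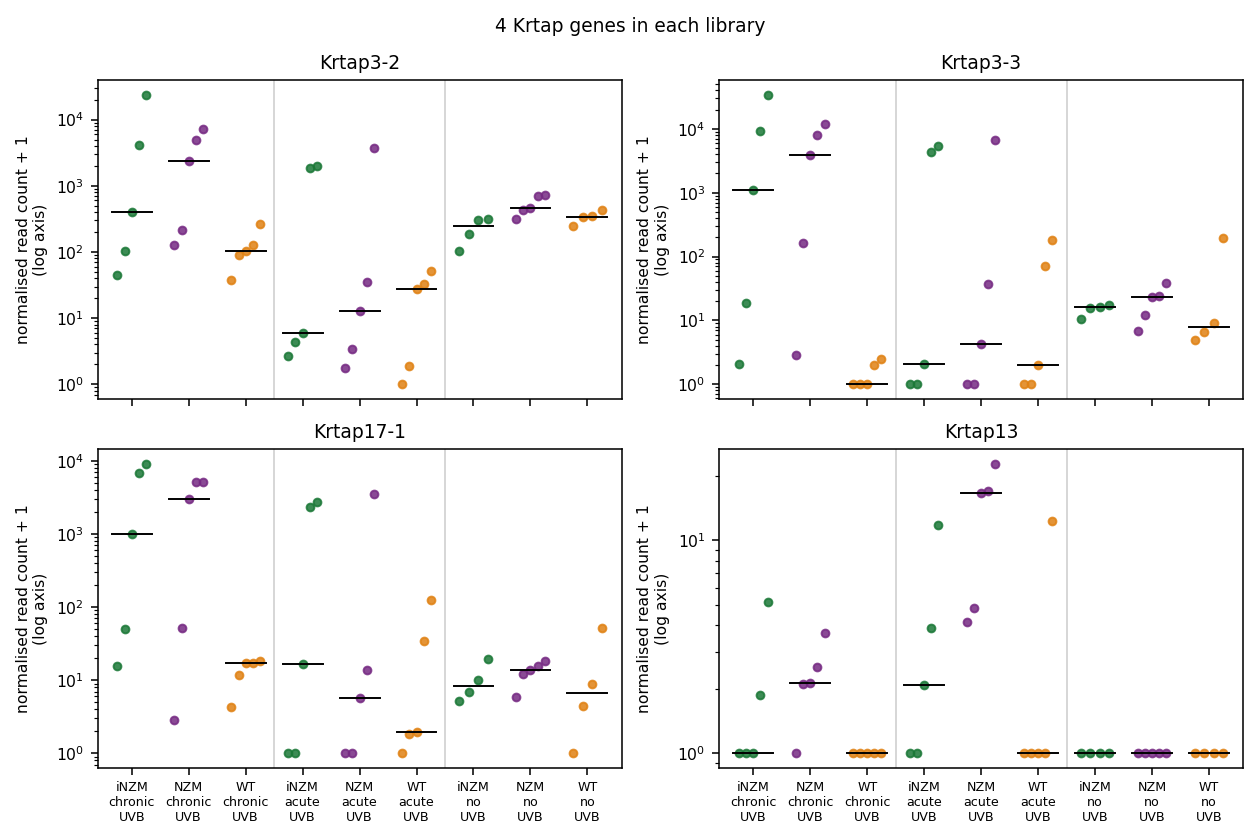
Normalised read count plus 1 (log axis) of Krtap3-2, Krtap3-3, Krtap17-1 and Krtap13 in each library, by strain and UVB regimen; bars are group medians. Krtap3-2 is at 103 or more in every unexposed library and low in most libraries after acute UVB, and Krtap13 reaches its highest values, up to 21.9, in NZM skin after acute UVB. The 4 genes were chosen after their values were seen.

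Krtap13 (ENSMUSG00000050224.3, chromosome 16, 88750744 to 88751635, minus strand) went another way than the rest of the family, at very low counts. It had 4.16, 0.87, 0, 0 and 0 normalised reads in iNZM skin after chronic UVB, 2.69, 1.54, 1.14, 1.11 and 0 in NZM skin, and 0 in all 5 WT libraries. After acute UVB it had 10.8, 2.89, 1.10, 0 and 0 in iNZM, 21.9, 16, 15.7, 3.80 and 3.12 in NZM, and 11.3 in 1 and 0 in 4 WT libraries. It had 0 in all 13 unexposed libraries, where a count of 0 allows up to 3 reads in each, covering counting error only. In NZM skin the exposed and unexposed groups did not overlap, and the lowest of the 5 exposed libraries was library 5, the one with the high family total. The share of all genes without overlap is not given here either, and limma called 21.4% of all genes in that comparison.

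The log2 difference of Krtap13 between acute and no UVB in NZM skin was 3.40 ± 0.62 (SE, limma adjusted p = 9.84e-05), on a log2(value + 1) scale where the size depends on the pseudocount. It ran from 1.22 to 6.66 over the alternatives, with adjusted p from 6.04e-05 to 0.0208. In iNZM skin the difference was 1.32 ± 0.65 (adjusted p = 0.133) and in WT skin 0.72 ± 0.65 (adjusted p = 0.492). NZM exceeded WT skin after acute UVB by 2.67 ± 0.62 (adjusted p = 0.00230), with adjusted p from 2.99e-05 to 0.343 over the alternatives. That call was lost with edgeR (adjusted p = 0.145) and with DESeq2 (adjusted p = 0.343), and the interaction of strain and acute UVB had a limma adjusted p of 0.292.

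A strain may differ in single members beyond a common shift of all shaft genes, so the strains were also compared with the level of 16 hair keratins as a covariate. At equal hair keratin level limma called 1 of 55 members between NZM and WT, where 19.1% of all genes were called, 10.8% higher and 8.32% lower. This was Krtap13, at 1.20 ± 0.40 (SE, adjusted p = 0.0301), which missed the threshold with a pseudocount of 8 (adjusted p = 0.0578) and with DESeq2 (adjusted p = 0.209), in a range of 0.00660 to 0.209. It also missed it without NZM acute UVB library 3, 46 or 47 and without WT acute UVB library 13, 50, 51 or 52, with adjusted p of 0.0520 to 0.0726. Without 1 library the number of members called was 0 to 2: it was 0 without NZM acute UVB library 46 or 47 or WT acute UVB library 13, 51 or 52, and 2 without NZM acute UVB library 1, WT acute UVB library 15, WT chronic UVB library 27, NZM unexposed library 31 or 33, or WT unexposed library 41. It called 0 of 55 between iNZM and WT (0 at an unadjusted p below 0.05, 22.1% of all genes called, 11% higher and 11.1% lower) and 0 between iNZM and NZM (2 at an unadjusted p below 0.05, 0.626% of all genes called, 0.0313% higher and 0.595% lower). In these 3 comparisons the members' median was 0.17 for NZM against WT, 0.09 for iNZM against WT and -0.02 for iNZM against NZM.

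edgeR on the same model was fitted to 39 libraries, where limma had 43. iNZM acute UVB library 49, with a high family total, was among those left out. edgeR also called Krtap13 higher in NZM than in WT, at 2.59 (adjusted p = 0.0341), and called further members, mostly lower. For NZM against WT the direction of 20 of 55 members was opposite in edgeR and limma. That of 15 was opposite for iNZM against WT and that of 16 for iNZM against NZM. Libraries and tool both differed between these fits, and their separate parts were not tested. By edgeR, 3 were higher and 6 lower in NZM than in WT, and 2 higher and 10 lower in iNZM than in WT. Between iNZM and NZM, 0 were higher and 9 lower in iNZM, among them Krtap19-9b, Krtap19-3, Krtap19-5, Krtap19-2 and Krtap19-4. Krtap6-1 had an edgeR log2 difference of -2.65 for NZM against WT (adjusted p = 1.45e-08) and -2.26 for iNZM against WT (adjusted p = 4.51e-07). Krtap6-5, whose coding sequence is 97.9% identical to that of Krtap6-1, had -1.02 (adjusted p = 0.0414) and -2.85 (adjusted p = 2.23e-06). Both encode glycine-tyrosine-rich proteins, and the division of reads between them is uncertain. Among the higher calls, Krtap31-1 had 4.19 for NZM against WT (adjusted p = 0.00212) and 3.54 for iNZM against WT (adjusted p = 0.00614). Krtap31-2 had 4.62 (adjusted p = 0.00271) and 4.07 (adjusted p = 0.00567). These 2 genes had 0 reads in every WT library, so the fitted sizes depend on the prior count and are no bound. DESeq2 called 1 lower in each of the 3 comparisons. All 14 WT libraries lay at summed counts of 4488 or below, so these models set WT libraries with few reads of the family against iNZM and NZM libraries with many. Strain and level cannot be told apart for the high range.

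Reads of 3 members were found in iNZM and NZM but in 0 of 14 WT libraries: Krtap31-1, Krtap31-2 and Krtap9-5, all on the plus strand of chromosome 11. The share of all genes with such a pattern is not given here, so this count has no background. These members passed the filter only through iNZM and NZM libraries, and WT libraries had few reads of the whole family. Krtap31-1 reached 4404 in iNZM and 3850.1 in NZM skin, Krtap31-2 reached 3739 and 3933, and Krtap9-5 reached 4243 and 4139. The coding sequences of Krtap31-1 and Krtap31-2 are 98.9% identical, so their separate counts are uncertain. In the 9 libraries above 10000, Krtap31-1 took 0.467% to 1.27% of the family's reads. A count of 0 allowed at most 0.0996% in WT acute UVB library 15 and 0.0612% in WT unexposed library 44. But it was also 0 in NZM chronic UVB library 18, at a summed count of 3731, where at most 0.0896% was allowed, as was Krtap31-2, while Krtap9-5 had 4.46 there. In iNZM chronic UVB library 57, at a summed count of 1229, Krtap31-1 had 1.48 and the other two had 0.

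Within the 9 libraries above 10000 the make-up of the family was steadier than its level. High glycine-tyrosine members took 15.5% to 24.0% of the family's reads, high sulfur members 51.8% to 64.9% and ultra-high sulfur members 15.2% to 30.1%. The high sulfur group is what the other rules left over, with no minimum of cysteine. It holds Krtap7-1, usually counted with the glycine-tyrosine proteins, so these class shares depend on where that gene is placed. The chromosome 11 genes took 54.7% in iNZM chronic UVB library 25, the library with the highest sum, and 32.7% in iNZM acute UVB library 6, and the chromosome 16 genes took 42.9% and 64.3% in these 2 libraries. Krtap3-3 was the most constant member, at 3.25% to 3.70%, followed by Krtap22-2 at 2.44% to 3.49%. Krtap7-1 took 10.8% to 19.8% and Krtap11-1 took 4.19% to 12.5%, with the lowest share of Krtap11-1 in library 25. Krtap19-4, a glycine-tyrosine-rich member, ranged from 0.0331% to 0.677%, and Krtap6-3 from 0.0147% to 0.174%. These are shares within single libraries chosen by their level, with no test.

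Other genes of the growing follicle were high in the same libraries. The summed count of the 16 hair shaft keratins, the filament proteins of the shaft, was 52759 to 555599 in the 9 libraries above 10000 and at most 7191 in the other 34. After chronic UVB 8 of 16 rose in iNZM and 9 of 16 in NZM skin by limma, 0 fell in either, and 0 of 16 were called in WT skin. Krt85, a hair keratin of the matrix and cortex, rose by 9.45 ± 2.94 (SE, limma adjusted p = 0.0169) in iNZM and by 7.87 ± 2.77 (adjusted p = 0.0425) in NZM skin. Of 12 genes of the inner root sheath and companion layer, the follicle layers around the shaft, 9 rose in iNZM and 10 rose and 1 fell in NZM skin. Tchh, which encodes trichohyalin, rose by 6.17 ± 2.05 (adjusted p = 0.0241) in iNZM and 6.80 ± 1.94 (adjusted p = 0.0146) in NZM skin. These lists were chosen with earlier results of these data known and are given as counts, beside the 13.1% and 9.2% of all genes called higher. For these and the lists below, results without 1 library and results of edgeR and DESeq2 are not given. How far the calls rest on single libraries is therefore not shown.

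Of 17 regulators of the hair matrix, 7 rose in iNZM and 2 rose and 2 fell in NZM skin after chronic UVB. The NZM counts are near the 9.2% of all genes called higher and 9.78% called lower. Hoxc13, a homeobox factor that activates hair keratin genes, rose by 2.64 ± 0.85 (SE, limma adjusted p = 0.0198) in iNZM; in NZM skin the difference was 1.58 ± 0.80 (adjusted p = 0.159). Lef1, a Wnt pathway factor of the matrix, rose by 4.23 ± 1.20 (adjusted p = 0.00945) in iNZM, and the NZM difference was 2.63 ± 1.13 (adjusted p = 0.0943). Foxn1, needed for shaft differentiation, did not pass in iNZM at 1.61 ± 0.97 (adjusted p = 0.208) or in NZM at 1.63 ± 0.92 (adjusted p = 0.208). Hoxc13 counts were 3187 to 8528 in the 9 libraries above 10000. They were at most 1186 in the other 34.

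WT chronic UVB library 58 parted these gene groups. Shh, the matrix signal that drives follicle growth, had 518 normalised reads there, within the 347 to 752 of the 9 libraries above 10000, while the other 4 WT libraries after chronic UVB had 18.5 to 42.7. Its Hoxc13 count was 1054, its 8 pigment cell genes summed to 22822 and its 16 hair keratins to 732. The 55 members summed to only 105, of which Krtap3-2 made up 87.8. High Shh was thus found in 10 libraries and a high family total in 9 of them.

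**Figure D5:**
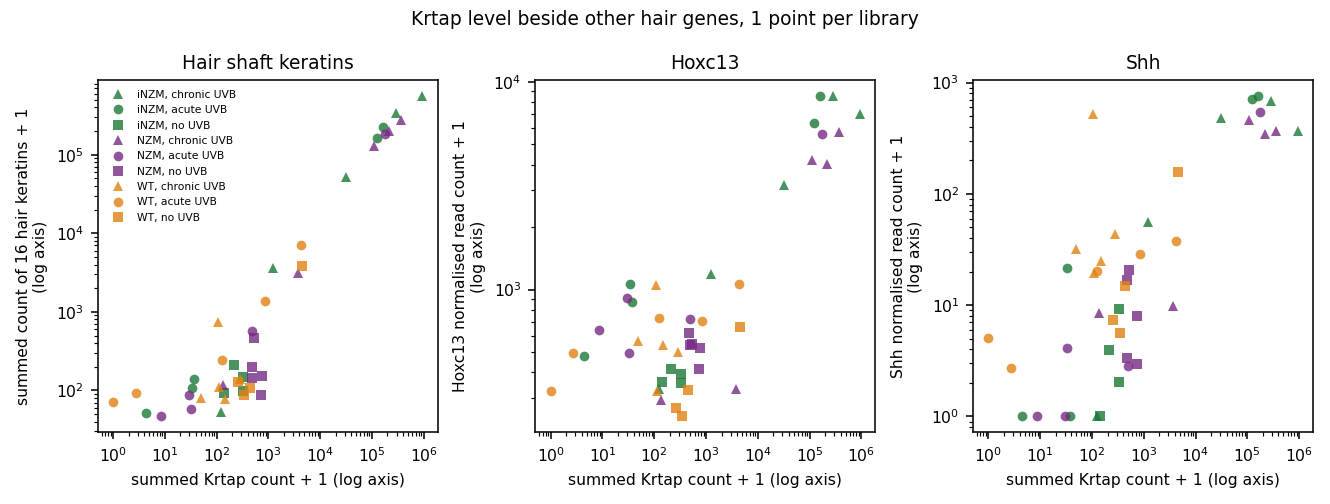
Summed count of 16 hair keratins, Hoxc13 count and Shh count (y axes, each plus 1, log) against the summed count of the 55 Krtap genes plus 1 (x axis, log), 1 point per library, with colour for strain and shape for UVB regimen. The 9 libraries with sums above 10000 are at the top right of each panel, and WT chronic UVB library 58 stands at a Shh count of 518 with a Krtap sum of 105.

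Counts of called genes of other cell types after chronic UVB are to be read against all genes, of which 13.1% were called higher and 15.7% lower in iNZM, 9.2% and 9.78% in NZM, and 18.4% and 16.8% in WT skin. Counts of 1 gene or so in a list are near these shares. The 8 pigment cell genes summed to 27230.5 to 70938 in the 9 libraries above 10000 and to at most 22822 in the rest, and 7 of 8 rose in iNZM and 6 of 8 in NZM skin after chronic UVB. The 8 skeletal muscle genes summed to 74348 to 401375 in the 9 libraries and to 227714 to 1889420 in the other 34. They fell in 6 of 8 in iNZM, 7 of 8 in NZM and 5 of 8 in WT skin after chronic UVB. The share of muscle in a biopsy and its part in the family's values were not tested. Of 12 proliferation genes 7 rose in iNZM, 4 in NZM and 11 in WT skin. Of 10 genes of the bulge and resting follicle, the stem cell compartment, 2 rose and 4 fell in iNZM, 1 rose and 3 fell in NZM, and 1 rose and 1 fell in WT skin. Of 8 dermal papilla genes 2 rose in iNZM, 0 were called in NZM and 4 fell in WT skin. Sebaceous gland genes rose in 2, 2 and 6 of 8 and fell in 1 of 8 in each of iNZM, NZM and WT skin. Epidermal genes rose in 1, 2 and 5 of 8 and fell in 1, 2 and 0. Of 6 adipocyte genes 4 fell in iNZM, 0 were called in NZM and 5 fell in WT skin, and of 8 macrophage and neutrophil genes 5 fell in iNZM, 2 rose in NZM and 3 rose in WT skin.

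High libraries were present on both sides of the numbering of samples. Of 13 libraries with a number of 46 or above 3 had sums above 10000, and of 30 libraries with a lower number 6 had. All libraries numbered 46 or above came from UVB-exposed skin, and all 13 unexposed libraries had lower numbers. Sample number and exposure were thus tied, and these counts do not compare like with like. The labels do not say whether the number marks a batch. Besides the near-identical pairs named, 6 members overlap another annotated gene, among them Krtap10-4, Krtap10-10 and Krtap12-1, which lie within Tspear, and Krtap14 and Krtap15, which overlap each other, so their counts are uncertain.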

How the data were processed

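Per the labels' protocols, poly-A RNA was read from both ends at 151 bases in 43 samples of mouse back skin. The authors deposited 1 table with 1 signal per gene and sample, a read count divided by a size factor. STAR, HTSeq, DESeq2 and build mm10 are named in the submitters' processing notes, with no versions or settings; annotation and filters are not given in the sources used here. Genes are listed by symbol; 55 of 55 members matched GENCODE vM21 (GRCm38).

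Samples were grouped by strain and regimen in their titles. The 19170 genes that reached 10 in 4 or more libraries were tested with limma-trend 3.58.1 (R 4.3.3) on log2(value + 1), 1 mean per group, two-sided, with Benjamini-Hochberg adjustment at 0.05, in 20 comparisons. The strain comparisons at equal hair keratin level used strain, regimen and the mean of log2(value + 1) over 16 hair keratins. Fold changes are on that scale, which understates changes of low genes. A value is called a normalised read count throughout.

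Whole reads were recovered as multiples of 1 step per library (100% of values within 0.01) for 39 libraries and tested with edgeR 4.0.16 and DESeq2 1.42.0 without outlier replacement. The other 4 (iNZM acute 49, WT chronic 58, NZM unexposed 32, WT unexposed 43) were left out of the count tests, because their step lies near 1 and whole reads could not be checked there, and limma on the same 39 was added after seeing the data. Other settings were a pseudocount of 8, no filter, TMM scaling of the deposited values, only the compared groups, sample number (46 and above, or below) as a covariate, no hair keratin score, and leaving out each library in turn. The steps were tested on simulated data.

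Members and lists were chosen with earlier results of these data known. Named are subfamily leaders, the 6 members with the highest means, the members of smallest adjusted p (at most 3 per comparison), members absent from 1 strain, members highest in unexposed skin, and leading list genes. Proteins are not shown here. Tables and plots used matplotlib 3.10.9, numpy 2.4.6 and pandas 2.3.3 under Python 3.11.15.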

Additional observations from a re-analysis of the deposited data

Results flagged for a closer look

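In 10 measures (the summed count and 9 members) over 9 groups, 36 of 90 sets had a highest library standing apart from the next by Dixon's criterion at 95%. Its chance rate of about 1 in 20 holds for normally distributed values. These are skewed counts with many zeros, so that rate is no measure for the 36. A set with reads in only 1 library is always flagged, and a set of zeros never. Members that move together are not independent sets.

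NZM acute UVB library 5 stood apart with a summed count of 177464 (next 489.6) and with Krtap7-1 at 22430.1, Krtap8-1 at 12766, Krtap11-1 at 13556, Krtap3-1 at 10850.5, Krtap15 at 8679, Krtap3-3 at 6569, Krtap3-2 at 3745 and Krtap17-1 at 3499. WT acute UVB library 15 stood apart with a sum of 4253 (next 848), Krtap7-1 at 1009.9, Krtap8-1 at 486, Krtap11-1 at 503, Krtap3-1 at 216, Krtap15 at 175, Krtap17-1 at 126 and Krtap13 at 11.3. WT unexposed library 44 stood apart with a sum of 4488 (next 438), Krtap7-1 at 580.4, Krtap8-1 at 229.8, Krtap11-1 at 232, Krtap3-1 at 297, Krtap15 at 180.4, Krtap3-3 at 195 and Krtap17-1 at 51.3. NZM unexposed library 33 did so at low counts, with Krtap7-1 at 53.2, Krtap8-1 at 23.1, Krtap11-1 at 11.6 and Krtap3-1 at 6.94.

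iNZM chronic UVB library 25 stood apart for Krtap3-1 at 62504, Krtap3-3 at 34172 and Krtap3-2 at 23758, with the next libraries at 13739.8, 9391 and 4128. Low counts gave the other flags: Krtap11-1 at 3.27 in WT chronic UVB library 28, Krtap3-1 at 1.14 in WT chronic UVB library 29, Krtap13 at 10.8 in iNZM acute UVB library 48 and Krtap13 at 4.16 in iNZM chronic UVB library 24.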

How the results depend on the processing

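No paired analysis was possible because no sample number occurs in more than 1 group. Counts of called members (of 55) are given as higher and lower where both occur. With a pseudocount of 8 they were 0 for WT acute, 1 for NZM chronic against acute and 0 for NZM against WT at equal hair keratin level. With no filter they were 0 for WT acute and 1 for NZM chronic against acute. With only the compared groups they were 3 for iNZM chronic, 2 lower for WT chronic, 1 for NZM chronic against acute, 1 for WT chronic against acute and 36 for the chronic interaction. With the sample number covariate and with limma on 39 libraries WT acute had 0, and on 39 libraries NZM chronic had 26. Without the hair keratin score iNZM against WT had 5.

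edgeR called 1 for iNZM acute, 0 for WT acute, 8 for NZM and 48 for iNZM chronic, 0 for NZM chronic against acute, 0 for NZM against WT after acute and 2 after chronic UVB, and 5 for the chronic interaction. DESeq2 called 40 for NZM, 51 for iNZM and 6 lower for WT after acute UVB, 47 for NZM, 53 for iNZM and 46 lower for WT chronic, 0 for NZM and 41 lower for WT chronic against acute, 24 lower for unexposed NZM against WT, 10 for NZM against WT after acute and 53 after chronic UVB, 18 for unexposed iNZM against NZM, and 22 and 52 for the acute and chronic interactions. At equal hair keratin level edgeR called 9 (3 higher, with limma's Krtap13 among them, and 6 lower), 12 and 9, and DESeq2 called 1 each, lower, for NZM against WT, iNZM against WT and iNZM against NZM. The cause was not tested. These counts have no share of all genes called by the same tool beside them.

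Leaving out 1 library gave 1 to 2 calls for NZM acute, 0 to 1 for WT acute, 2 to 53 for NZM chronic, 1 to 53 for iNZM chronic, 0 to 39 for NZM chronic against acute, 0 to 1 for iNZM chronic against acute, 1 for NZM against WT after acute and 0 to 53 after chronic UVB, 0 to 1 for iNZM against NZM after acute UVB, 0 to 28 for the chronic interaction, 0 to 2 for NZM against WT at equal hair keratin level, and 0 in the other comparisons. TMM scaling moved no count by over 1.5 times and the median of all genes by under 0.1. The 15 named calls kept their direction under the settings run for them. At equal hair keratin level, 20 of 55 members had opposite directions in edgeR (39 libraries) and limma (43 libraries) for NZM against WT. For iNZM against WT 15 had, and for iNZM against NZM 16. Members below about 3 reads in a library are within counting error of 0.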
